A study of Mus musculus with 16 samples.

Results

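The cytochrome P450 enzymes of families 1 to 4 were followed in mouse liver through all probe sets whose platform gene symbol begins with Cyp, a family digit from 1 to 4, a subfamily letter and a digit. This rule gave 62 of the 22626 probe sets tested, which carry 53 gene labels in 16 subfamilies. The largest subfamilies were Cyp2c with 11 probe sets, Cyp2d with 9, Cyp4f with 7, and Cyp2b and Cyp3a with 6 each. Of the 62 probe sets, 4 are annotated to a pair of paralogs (Cyp2a5/Cyp2a4, Cyp3a41b/Cyp3a41a, Cyp4a31/Cyp4a10 and Cyp4f37/Cyp4f16), and their values cannot be split between the genes.

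Liver RNA of male FvB/n mice was hybridised to 16 single-sample Affymetrix arrays in 2 experiments of 8, both made to follow the integrated stress response, in which phosphorylation of the initiation factor eIF2 slows protein synthesis and changes transcription. In the first experiment, 4 AP20187-treated TTR::Fv2E-PERK mice were set against 4 untreated TTR::Fv2E-PERK mice, so both groups carried the transgene, in its high-expressing line. Fv2E-PERK is a chimera of the eIF2 kinase PERK that the drug AP20187 dimerises and so activates, and the transthyretin promoter drives it in liver. None of the 16 arrays is from AP20187-treated mice without the transgene, so an effect of the drug apart from Fv2E-PERK was not tested. In the second experiment, 2 arrays were made for each of 4 groups: Alb::GC mice on a high fat diet (HFD), wildtype mice on HFD, Alb::GC mice on LFD, a low fat diet, and wildtype mice on LFD. Alb::GC mice express from the albumin promoter a fragment of GADD34, the regulatory subunit that directs a phosphatase to eIF2. The sources used here do not give ages, doses or the lengths of treatment and diet.

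P450 enzymes are heme proteins of the endoplasmic reticulum that insert oxygen into their substrates with electrons passed on by a reductase and by cytochrome b5. In liver, members of families 1 to 3 oxidise drugs, environmental chemicals and steroids, while members of family 4 mainly oxidise the far end of fatty acids. Many of their genes are switched by ligand-activated receptors: the aryl hydrocarbon receptor for Cyp1a, CAR for Cyp2b, PXR for Cyp3a and PPARα for Cyp4a. In mice several members also differ between the sexes, under the control of the pattern of growth hormone secretion.

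The deposited value was a ratio around 1 for each probe set and array, and the sources used here do not say what it was taken against. Such a ratio holds no absolute level and no detection call, so neither genes nor experiments can be compared by level, and the tissue cannot be checked by the presence of its markers. Differences were therefore taken within an experiment, on the log2(ratio + 0.05) scale, with limma and Benjamini-Hochberg adjustment over all 22626 probe sets at a threshold of 0.05, and errors beside a difference are standard errors. Array medians lay between 0.94 and 1.02, and log2 values of replicates correlated at 0.442 to 0.658. Of 2 arrays, LFD wildtype replicate 2 and AP20187 replicate 4, one label field goes against the description or is uninformative, and the description was followed. Whether every array stands for a separate animal is not in the labels, so p-values reflect the spread between samples that could be technical replicates.

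More P450 probe sets were lower than higher after AP20187. Of the 62 probe sets, 8 were higher in AP20187-treated than in untreated livers and 29 were lower, which is 12.9% and 46.8%. Over all probe sets 34.1% passed the threshold, 13.7% higher and 20.4% lower. The median log2 difference of the 62 probe sets was -0.49, against -0.13 over all probe sets. Without AP20187 replicate 4 the counts were again 8 and 29. Counted by gene, with the probe set of highest mean for each, 6 of 53 gene labels rose and 25 fell.

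Cyp2b10, the classic phenobarbital-inducible target of CAR, showed the largest rise of the family. On its first probe set (1422257_s_at) the ratio was 1.06, 0.95, 0.81 and 1.05 in the AP20187-treated livers, against 0.06, 0.06, 0.07 and 0.05 in the untreated ones. The groups did not come near each other, and the log2 difference was 3.21 ± 0.26 (adjusted p = 0.000119). The other 2 probe sets gave 3.19 ± 0.26 and 3.06 ± 0.26. The remaining Cyp2b members did not follow it. Cyp2b9, whose RNA is higher in female than in male mouse liver, had ratios of 2.79, 3.20, 0.56 and 3.01 with AP20187, against 1.54, 0.61, 1.59 and 0.66 untreated. AP20187 replicate 3 fell below all untreated arrays, and the difference of 0.95 ± 0.59 did not pass (adjusted p = 0.265). Without that array the difference was 1.53 ± 0.37 (adjusted p = 0.0188). That array held the value most against a rise, so leaving it out favours a pass. Cyp2b13 (-0.48 ± 0.56) and Cyp2b19 (-0.59 ± 0.27) did not pass either.

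In the Cyp4a subfamily 3 of 4 probe sets rose. Cyp4a14, a fatty acid omega-hydroxylase under PPARα, had ratios of 1.46, 1.40, 0.92 and 1.08 in AP20187-treated livers, against 0.41, 0.28, 0.27 and 0.19 in untreated livers. The lowest treated array was above the highest untreated one, with a log2 difference of 1.92 ± 0.27 (adjusted p = 0.00113). Cyp4a31 had ratios of 2.15, 1.16, 1.17 and 3.02 with AP20187, against 0.30, 0.32, 0.44 and 0.09 untreated, and rose by 2.53 ± 0.46 (adjusted p = 0.00395). The probe set shared by Cyp4a31 and Cyp4a10 rose less, by 0.59 ± 0.11 (adjusted p = 0.00357), again with no overlap between the groups. Cyp4a12a, the fatty acid hydroxylase typical of male mouse liver, went the other way. Its ratios were 1.05, 0.90, 1.30 and 0.95 with AP20187, against 1.51, 1.78, 1.55 and 1.97 untreated, a log2 difference of -0.68 ± 0.14 (adjusted p = 0.00619).

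The other rises were on a Cyp2a and a Cyp3a probe set. The probe set of Cyp2a5, a coumarin hydroxylase, and its paralog Cyp2a4, a testosterone hydroxylase, read 1.13, 0.98, 0.94 and 1.02 with AP20187, against 0.32, 0.32, 0.32 and 0.36 untreated. The difference was 1.49 ± 0.18 (adjusted p = 0.000561) with wide separation of the groups. Cyp3a13, a drug-oxidising member, had ratios of 1.17, 1.34, 0.97 and 1.11 with AP20187, against 0.76, 0.61, 0.66 and 0.83 untreated. Its groups did not overlap and it rose by 0.65 ± 0.14 (adjusted p = 0.00934).

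**Figure D1:**
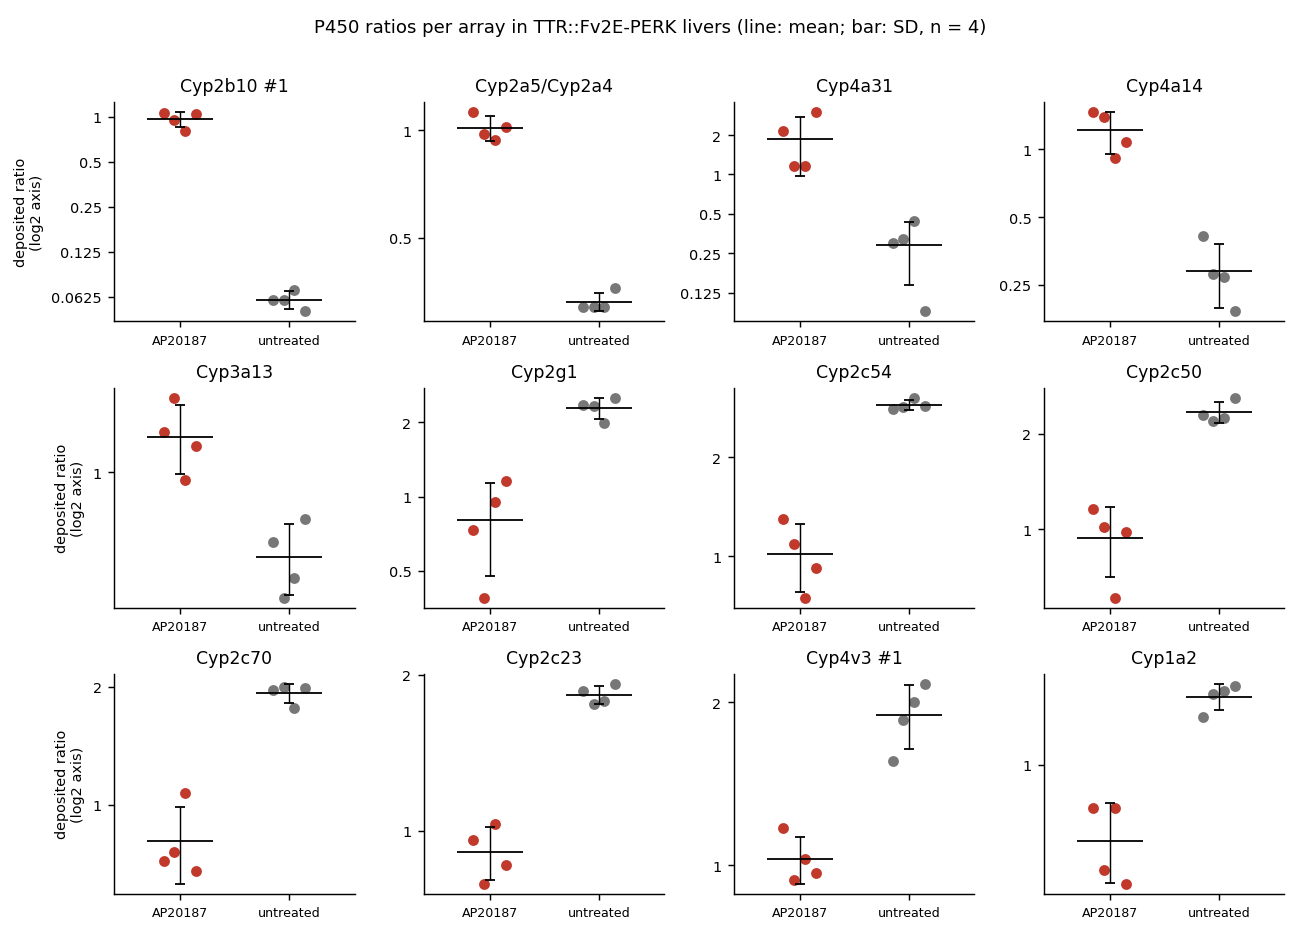
Deposited ratio per array (log2 axis, each panel on its own scale) for 12 P450 probe sets in AP20187-treated and untreated TTR::Fv2E-PERK livers; points are arrays, lines group means and bars SD (n = 4 each), and #1 marks the first of several probe sets of a gene. In each of the panels the groups do not overlap: Cyp2b10, Cyp2a5/Cyp2a4, Cyp4a31, Cyp4a14 and Cyp3a13 lie higher with AP20187, and Cyp2g1, Cyp2c54, Cyp2c50, Cyp2c70, Cyp2c23, Cyp4v3 and Cyp1a2 lie lower.

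The Cyp2c subfamily, whose members oxidise drugs and turn arachidonic acid into epoxides, was lower on most of its probe sets. Of its 11 probe sets, 8 were lower with AP20187 and none was higher, with a median log2 difference of -0.82. Cyp2c54 had ratios of 1.30, 1.09, 0.75 and 0.92 with AP20187, against 2.80, 2.84, 3.03 and 2.86 untreated, a difference of -1.49 ± 0.16 (adjusted p = 0.00038). The lowest untreated array was well above the highest treated one. Its neighbour Cyp2c50 had ratios of 1.16, 1.02, 0.61 and 0.98 with AP20187, against 2.30, 2.20, 2.25 and 2.60 untreated (-1.30 ± 0.18, adjusted p = 0.00116). Cyp2c70, the enzyme that makes muricholic acids in mouse bile acid synthesis, read 0.72, 0.76, 1.07 and 0.68 with AP20187, against 1.96, 1.99, 1.76 and 1.98 untreated (-1.22 ± 0.14, adjusted p = 0.000443). These groups were also fully separate. Cyp2c55 (-1.08 ± 0.18), Cyp2c23 (-0.98 ± 0.10), Cyp2c68 (-0.82 ± 0.10), Cyp2c29 (-0.69 ± 0.08) and Cyp2c38 (-0.64 ± 0.11) fell by smaller amounts. Cyp2c37, Cyp2c39 and Cyp2c65 had negative differences that did not pass. Cyp2c37 was at -0.67 ± 0.27 (adjusted p = 0.0905), and without untreated replicate 4 at -0.93 ± 0.18 (adjusted p = 0.0086). That array read 0.97 and alone of the untreated ones overlapped the AP20187-treated arrays, so leaving it out favours a pass.

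The largest fall of all 62 was on Cyp2g1, a member first known from olfactory mucosa. Its ratios were 0.73, 0.39, 0.95 and 1.16 with AP20187, against 2.35, 2.33, 1.98 and 2.51 untreated, a difference of -1.54 ± 0.29 (adjusted p = 0.00424). Even the highest treated array was below the lowest untreated one. In the Cyp2d subfamily, which oxidises many drugs and in mice also steroids, 6 of 9 probe sets fell, by 0.47 to 0.69 on the log2 scale. Cyp2d10 changed most (-0.69 ± 0.09, adjusted p = 0.000791). Cyp2d9, a testosterone hydroxylase of male mouse liver, did not pass (-0.36 ± 0.12, adjusted p = 0.0566).

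Several drug-metabolising enzymes with large roles in liver fell by smaller amounts. Cyp1a2, which oxidises caffeine and arylamines, had ratios of 0.87, 0.71, 0.87 and 0.68 with AP20187, against 1.17, 1.26, 1.27 and 1.29 untreated (-0.65 ± 0.11, adjusted p = 0.0027). Cyp2e1, the ethanol- and acetaminophen-oxidising member, read 0.90, 0.91, 1.0 and 0.99 with AP20187, against 1.27, 1.27, 1.13 and 1.29 untreated. Its groups did not overlap, but the fall was one of the smallest that passed (-0.37 ± 0.08, adjusted p = 0.0093), and with quantile-normalized arrays it did not pass (adjusted p = 0.0581). Cyp3a11, the main PXR target of the subfamily, fell by 0.46 ± 0.08 (adjusted p = 0.00282), Cyp3a25 by 0.57 ± 0.10 and the Cyp3a41b/Cyp3a41a probe set by 0.75 ± 0.18. Cyp2f2, which oxidises naphthalene, fell by 0.52 ± 0.12 (adjusted p = 0.00956). Cyp1a1, the aryl hydrocarbon receptor target, did not pass (-0.67 ± 0.26, adjusted p = 0.0827), nor did any of the 3 Cyp1b1 probe sets.

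Among the remaining family 4 members, Cyp4v3, a fatty acid omega-hydroxylase, fell on both probe sets, by 0.85 ± 0.12 and 0.74 ± 0.13. Cyp4f14, which inactivates leukotriene B4, fell by 0.78 ± 0.09 (adjusted p = 0.000398), with ratios of 1.07, 0.97, 0.89 and 0.92 in AP20187-treated livers, against 1.64, 1.56, 1.76 and 1.80 in untreated livers. Cyp4f13 (-0.48 ± 0.12) and the Cyp4f37/Cyp4f16 probe set (-0.62 ± 0.17) also fell, and Cyp4f15, Cyp4f16, Cyp4f18 and Cyp4b1 did not pass. Cyp2j5, an arachidonic acid epoxygenase of liver and kidney, fell on one probe set (-0.69 ± 0.10, adjusted p = 0.00151). The other Cyp2j5 probe set was too scattered to pass (-1.05 ± 0.40, adjusted p = 0.0804), and Cyp2j6 fell by 0.58 ± 0.14. Cyp2a12, Cyp2d12, Cyp2d34, Cyp2j9, Cyp2j13, Cyp2s1, Cyp3a16 and Cyp3a44 did not pass.

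The partners of the P450s moved as well. Over all probe sets 13.7% rose and 20.4% fell with AP20187. Of 9 probe sets for electron partners, 8 fell and none rose. Cyb5b, an outer mitochondrial cytochrome b5, fell on 3 probe sets by 1.74 to 1.81. Cyb5r3, the cytochrome b5 reductase, fell by 0.99 to 1.35 on 3 of its 4. The cytochrome b5 gene Cyb5a fell less, by 0.44 ± 0.09, as did the partner Pgrmc1, by 0.56 ± 0.08. Por, the P450 reductase, was not analysed here. In heme synthesis 3 of 13 probe sets rose and 7 fell: the first enzyme, Alas1, rose by 0.95 ± 0.24 and 1.31 ± 0.18, while Alad fell by 1.18 ± 0.14 and Urod by 1.05 ± 0.13. In heme breakdown Hmox1, heme oxygenase 1, rose by 2.90 ± 0.28, and the biliverdin reductase Blvra fell by 1.14 ± 0.11. Of 20 probe sets for receptors and other factors that act on P450 genes, 12 rose and 1 fell. The PXR gene Nr1i2 rose by 1.35 ± 0.08 and 1.51 ± 0.13, and the aryl hydrocarbon receptor gene Ahr by 1.23 ± 0.13 and 0.92 ± 0.16. The CAR gene Nr1i3 had a difference of 0.09 ± 0.13 (adjusted p = 0.665). The PAR bZIP factors Dbp, Tef and Hlf, clock-controlled activators that act on Cyp2b10 and Cyp2a5 among other genes, rose on 5 of 7 probe sets, Dbp by 3.34 ± 0.25 and 3.51 ± 0.26. Of 11 probe sets for PPARα targets outside the P450s, 5 rose and 2 fell: Acot1, an acyl-CoA thioesterase, rose by 2.09 ± 0.27 and Pdk4, a pyruvate dehydrogenase kinase, by 2.83 ± 0.51, whereas Fabp1, the liver fatty acid binding protein, fell by 0.84 ± 0.11 and 0.56 ± 0.10.

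Other hepatocyte markers moved with the falling P450s. Over all probe sets 20.4% were lower with AP20187 and 13.7% were higher. Of 17 hepatocyte marker probe sets 13 were lower with AP20187 and none was higher. Their median log2 difference was -0.49, from -3.32 on an Otc probe set to 0.14 on Tat, and Alb was at -0.38 ± 0.08. Their summed ratio was 15.06 to 17.51 in AP20187-treated livers, against 28.27 to 35.03 in untreated livers. In such a sum single probe sets can weigh heavily. Summed markers of macrophages (5.96 to 8.01 against 9.23 to 9.95), of stellate cells and fibroblasts (9.90 to 10.97 against 18.43 to 23.27) and of endothelium (5.07 to 6.18 against 7.28 to 8.11) were lower too, and those of cholangiocytes and lymphocytes overlapped. Lower counts of a cell type and less RNA per cell cannot be told apart in whole liver, no marker can be read as absent from ratios, and the part of these shifts in the P450 results was not tested. The Gapdh 3′ minus 5′ log2 difference was -0.14 to 0.19 with AP20187 and -0.06 to -0.01 untreated, and the actin one -0.04 to 0.15 and -0.18 to -0.02.

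In wildtype livers HFD raised some P450s and lowered others. Compared with LFD, 10 of the 62 probe sets were higher and 15 lower, or 16.1% and 24.2%. Over all probe sets 14.6% passed, 7.97% higher and 6.63% lower. The 2 arrays per group left these calls fragile: without HFD wildtype replicate 1 the counts were 1 and 0, without HFD wildtype replicate 2 they were 0 and 0, without LFD wildtype replicate 1 they were 5 and 5, and without LFD wildtype replicate 2, whose labels conflict, they were 5 and 8. Without one LFD Alb::GC array they were 7 or 8 higher and 11 or 12 lower, and without one HFD Alb::GC array 6 higher and 10 or 11 lower. With quantile-normalized arrays 5 were higher and 11 lower.

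The rises in wildtype livers were led by Cyp2b9. Its ratio was 10.97 and 11.65 in HFD wildtype livers, against 0.45 and 0.63 in LFD wildtype livers, and the log2 difference was 4.28 ± 0.35 (adjusted p = 0.00499). Without LFD wildtype replicate 2 it was 4.51 ± 0.44 (adjusted p = 0.0194). Cyp2b13, the neighbouring and also female-biased gene, was chosen for description after its values were seen. It read 117.2 and 131.0 in HFD wildtype livers, against 1.73 and 1.32 in LFD wildtype livers. The difference was 6.31, the largest of any member, yet the adjusted p was 0.631. Its mean log2 ratio lay at the far end of the array, with 3 probe sets at or above it, where the variance that limma fits to the mean gave it a standard deviation of 8.34 against a measured residual of 0.95. Without that variance trend the adjusted p was 0.0116, and with robust moderation 0.0149. Cyp2b10 did not move with its neighbours: its first probe set read 2.12 and 1.84 in HFD wildtype livers, against 1.50 and 1.68 in LFD wildtype livers (0.31 ± 0.40, adjusted p = 0.63).

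The bases upstream of these 3 Cyp2b genes are shown because Cyp2b9 and Cyp2b13 had large HFD rises in wildtype livers and Cyp2b10 did not. Of the 2, only Cyp2b9 passed there with the variance trend. In Alb::GC livers neither passed on HFD, with differences of 1.08 ± 0.35 for Cyp2b9 (adjusted p = 0.114) and 2.48 for Cyp2b13 (adjusted p = 0.872). The bases are RefSeq sequences on GRCm38.p6, plus strand, 5′ to 3′, and each run begins 250 bases before the start site that the promoter table lists. That start lies inside the annotated gene of Cyp2b13 and Cyp2b9, so the last 107 and 59 bases before it are not printed and these runs stop where the gene begins. The capitals mark AGGTCA, the short element that nuclear receptors bind.
Cyp2b9, chr7:26173159-26173349: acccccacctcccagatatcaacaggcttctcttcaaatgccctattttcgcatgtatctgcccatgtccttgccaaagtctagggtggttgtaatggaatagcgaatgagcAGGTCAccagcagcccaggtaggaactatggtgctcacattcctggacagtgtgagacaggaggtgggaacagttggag
Cyp2b13, chr7:26061245-26061387: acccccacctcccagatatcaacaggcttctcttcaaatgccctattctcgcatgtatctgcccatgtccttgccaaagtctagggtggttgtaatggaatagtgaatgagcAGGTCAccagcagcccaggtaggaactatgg
Cyp2b10, chr7:25897408-25897657: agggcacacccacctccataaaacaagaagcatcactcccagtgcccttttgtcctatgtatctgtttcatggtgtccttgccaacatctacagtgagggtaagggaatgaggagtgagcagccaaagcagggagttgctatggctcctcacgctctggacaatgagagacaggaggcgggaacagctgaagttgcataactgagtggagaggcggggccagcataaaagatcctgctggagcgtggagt
Over the 250 bases before the listed start, Cyp2b13 and Cyp2b9 were identical at 248 of 250 positions (99.2%), whereas Cyp2b10 matched each of them at 71.0% of 262 aligned columns. AGGTCA, searched on both strands, began at position -138 from the listed start in Cyp2b9 and Cyp2b13 and was not in the Cyp2b10 window. It occurs in 14.0% of all 32851 such windows and in 11 of the 44 P450 genes that have one. The 2 genes are alike enough that cross-hybridisation between their probe sets cannot be checked from these ratios.

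The Cyp2c subfamily split on HFD, with 3 of 11 probe sets higher and 5 lower in wildtype livers. Cyp2c38 rose, with ratios of 2.40 and 2.29 in HFD wildtype livers, against 0.34 and 0.69 in LFD wildtype livers (2.16 ± 0.31, adjusted p = 0.013). Cyp2c39, a retinoic acid hydroxylase, rose by 1.39 ± 0.33. Cyp2c50 rose by 0.52 ± 0.13 (adjusted p = 0.045), a call that was lost without any one of the 8 arrays. Cyp2c54 fell to 0.27 and 0.31 in HFD wildtype livers, against 1.22 and 1.14 in LFD wildtype livers (-1.86 ± 0.24, adjusted p = 0.0106). Cyp2c70 fell to 0.45 and 0.50 in HFD wildtype livers, against 2.01 and 1.42 in LFD wildtype livers (-1.73 ± 0.21, adjusted p = 0.00926). Both falls were several-fold and the arrays did not overlap. Cyp2c23 (-1.42 ± 0.18), Cyp2c65 (-1.50 ± 0.32) and Cyp2c68 (-0.84 ± 0.20) fell as well. Cyp2c29 and Cyp2c55 did not pass.

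Cyp2c37, like Cyp2b13, was chosen for description after its values were seen. It read 14.48 and 15.02 in HFD wildtype livers, against 1.06 and 1.48 in LFD wildtype livers, and 21.09 and 18.03 in HFD Alb::GC livers, against 0.81 and 0.67 in LFD Alb::GC livers. In both genotypes the HFD arrays were far above the LFD arrays. The log2 differences were 3.51 in wildtype and 4.64 in Alb::GC livers, with adjusted p of 0.716 and 0.652 under the same far end of the variance trend, where the fitted standard deviation was 6.04 against a residual of 0.20. Without the trend the adjusted p was 0.00337 and 0.00287, and with robust moderation 0.00952 and 0.00906. Cyp2c37, Cyp2c54 and Cyp2c50 are consecutive genes in RefSeq, and their diet responses differed: Cyp2c54 fell in wildtype livers, whereas Cyp2c50 rose in both genotypes. The upstream bases of Cyp2c37 and Cyp2c50, which were both higher on HFD in both genotypes, and of Cyp2c38, which passed in wildtype and not in Alb::GC livers (0.24 ± 0.31, interaction adjusted p = 0.221), are shown side by side, from RefSeq on GRCm38.p6, 5′ to 3′. Cyp2c38 is on the minus strand, with the last 28 bases before its listed start left out for the same reason, and the others are on the plus strand, and no capitals appear because none holds AGGTCA.
Cyp2c37, chr19:39992174-39992423: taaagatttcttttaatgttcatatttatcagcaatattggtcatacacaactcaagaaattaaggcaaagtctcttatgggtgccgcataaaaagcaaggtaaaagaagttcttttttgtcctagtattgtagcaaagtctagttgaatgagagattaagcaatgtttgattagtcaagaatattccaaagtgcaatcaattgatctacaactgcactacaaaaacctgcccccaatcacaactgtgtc
Cyp2c50, chr19:40089429-40089678: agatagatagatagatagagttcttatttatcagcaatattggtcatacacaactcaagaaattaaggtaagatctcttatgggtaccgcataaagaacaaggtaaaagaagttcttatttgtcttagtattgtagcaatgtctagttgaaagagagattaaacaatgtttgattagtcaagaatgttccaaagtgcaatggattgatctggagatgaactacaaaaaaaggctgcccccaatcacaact
Cyp2c38, chr19:39463104-39463325: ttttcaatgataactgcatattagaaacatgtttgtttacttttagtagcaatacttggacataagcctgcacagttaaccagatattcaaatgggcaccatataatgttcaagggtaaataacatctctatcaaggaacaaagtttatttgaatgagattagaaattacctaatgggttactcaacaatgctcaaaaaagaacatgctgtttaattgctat
Over 250 bases the windows of Cyp2c37 and Cyp2c50 matched at 84.3% of aligned columns, and that of Cyp2c38 matched them at 58.4% and 59.6%. The D box TTANGTAA, the site of PAR bZIP factors, was found on either strand in the Cyp2c38 window and in no other P450 window, against 2.06% of all windows. TGATGNAA, the element read by ATF4 and CHOP, was found in Cyp3a11 alone, against 3.45% of all windows. GCGTG, the core of aryl hydrocarbon receptor sites, was in 9 of 44 P450 windows and in 28.2% of all windows, and the E box CACGTG was in 2 of 44 and in 6.02%.

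Outside Cyp2b and Cyp2c, Cyp4a31 rose most in wildtype livers. It read 1.32 and 1.25 in HFD wildtype livers, against 0.05 and 0.08 in LFD wildtype livers (3.55 ± 0.61, adjusted p = 0.0199). Cyp4a14 read 1.62 and 1.57 in HFD wildtype livers, against 0.02 and 0.33 in LFD wildtype livers, and at 3.33 ± 0.89 it just missed the threshold (adjusted p = 0.0554). Its LFD arrays lay far apart from each other. Cyp3a13 rose, at 2.65 and 2.94 in HFD wildtype livers, against 0.86 and 0.83 in LFD wildtype livers (1.67 ± 0.17, adjusted p = 0.00677). Cyp2a5/Cyp2a4 (0.82 ± 0.21, adjusted p = 0.0492) and Cyp3a41b/Cyp3a41a (0.96 ± 0.18) rose, as did Cyp2j6 (0.86 ± 0.19). The second Cyp2j5 probe set rose by 1.43 ± 0.31, but the first gave 0.04 ± 0.17, so the gene's own probe sets disagreed.

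Falls in wildtype livers were found in 8 of the 16 subfamilies. Cyp2g1 read 0.27 and 0.26 in HFD wildtype livers, against 1.77 and 1.06 in LFD wildtype livers (-2.17 ± 0.32, adjusted p = 0.0135). Cyp4f14 read 0.43 and 0.48 in HFD wildtype livers, against 1.46 and 1.05 in LFD wildtype livers (-1.35 ± 0.22, adjusted p = 0.0164). Cyp1a2 read 0.65 and 0.75 in HFD wildtype livers, against 1.68 and 1.31 in LFD wildtype livers (-1.04 ± 0.18, adjusted p = 0.0207). In all 3 the HFD arrays lay far below the LFD arrays. Cyp2d13 fell on both probe sets, by 0.96 ± 0.18 and 1.40 ± 0.20, Cyp4f13 by 0.99 ± 0.19 and Cyp2f2 by 0.62 ± 0.16. Cyp3a16, a fetal and female-biased member, fell by 2.29 ± 0.53, with ratios of 0.03 and 0.15 in HFD wildtype livers, against 0.57 and 0.57 in LFD wildtype livers. Cyp2e1 (-0.19 ± 0.15), Cyp3a11 (-0.15 ± 0.14) and Cyp3a25 (0.03 ± 0.17) did not pass.

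Of 7 measured members known as higher in female mouse liver, 3 rose and 1 fell on HFD in wildtype livers, with a median log2 difference of 1.83. Over all probe sets 7.97% rose and 6.63% fell in wildtype livers. Cyp2b9, Cyp2a5/Cyp2a4 and Cyp3a41b/Cyp3a41a rose and Cyp3a16 fell. Both measured members known as higher in male liver fell: Cyp2d9, at 0.71 and 0.70 in HFD wildtype livers, against 1.43 and 1.14 in LFD wildtype livers (-0.81 ± 0.18, adjusted p = 0.0338), and Cyp4a12a, at 0.89 and 1.0 against 1.43 and 1.43 (-0.58 ± 0.13, adjusted p = 0.0371). In Alb::GC livers 1 of the 7 female-biased members, Cyp2a5/Cyp2a4, rose and none fell, with a median log2 difference of 0.65. That probe set is counted here for Cyp2a4 alone, and its rise in either genotype cannot be split between Cyp2a4 and Cyp2a5. Over all probe sets 4.64% rose and 2.13% fell in Alb::GC livers. There neither male-biased member passed, with differences of 0.12 ± 0.18 and 0.01 ± 0.13.

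**Figure D2:**
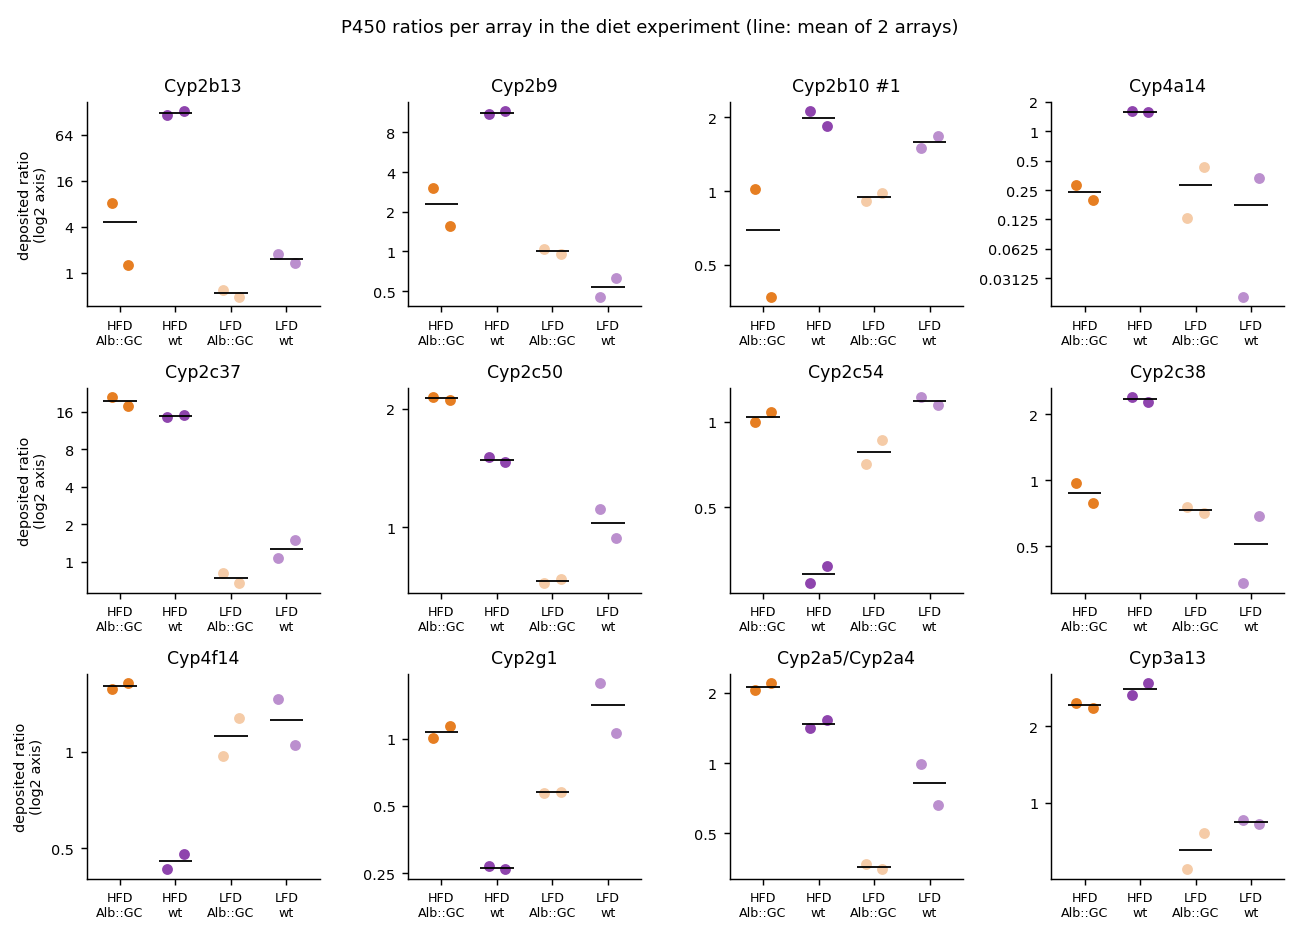
Deposited ratio per array (log2 axis, each panel on its own scale) for 12 P450 probe sets in the diet experiment, with HFD groups left of LFD groups and Alb::GC left of wildtype; points are arrays and lines the mean of 2. Cyp2b13 and Cyp2b9 are highest in HFD wildtype livers, Cyp2c37 and Cyp3a13 are high in both HFD groups, and Cyp2c54, Cyp4f14 and Cyp2g1 are lowest in HFD wildtype livers.

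In Alb::GC livers fewer P450s passed. Compared with LFD, 5 of 62 probe sets were higher on HFD and 2 were lower, 8.06% and 3.23%. Over all probe sets 6.77% passed, 4.64% higher and 2.13% lower. Without HFD Alb::GC replicate 1 or replicate 2 no member passed in either direction, without LFD Alb::GC replicate 1 or replicate 2 the counts were 3 and 0, and without HFD wildtype replicate 1 or replicate 2, which only enter through the shared spread, they were 3 and 1. Cyp2a5/Cyp2a4 read 2.06 and 2.20 in HFD Alb::GC livers, against 0.37 and 0.35 in LFD Alb::GC livers (2.41 ± 0.21, adjusted p = 0.00754). Cyp3a13 read 2.47 and 2.35 in HFD Alb::GC livers, against 0.55 and 0.76 in LFD Alb::GC livers (1.82 ± 0.17, adjusted p = 0.0091). Cyp2c50 read 2.14 and 2.11 in HFD Alb::GC livers, against 0.72 and 0.74 in LFD Alb::GC livers (1.48 ± 0.13, adjusted p = 0.00754). In these 3 the replicates lay close together and the diets far apart. Cyp2j6 rose by 0.92 ± 0.19 and Cyp4f15 by 0.88 ± 0.15. One of 3 Cyp1b1 probe sets fell by 2.93 ± 0.38 (adjusted p = 0.0171) while the other 2 did not pass, and one of 3 Cyp2b10 probe sets (1451787_at) fell by 1.46 ± 0.32 (adjusted p = 0.0499).

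Averaged over the genotypes, HFD against LFD gave 10 higher and 14 lower P450 probe sets, 16.1% and 22.6%. Over all probe sets 27.5% passed, 13.5% higher and 14% lower. The largest rises that passed were Cyp2b9 (2.68 ± 0.25), Cyp4a31 (1.91 ± 0.43) and Cyp3a13 (1.74 ± 0.12, adjusted p = 0.0014). The HFD and LFD arrays of Cyp4a31 overlapped. Its difference was 3.55 ± 0.61 in wildtype and 0.27 ± 0.61 in Alb::GC livers, where it did not pass (adjusted p = 0.806). The largest falls that passed were Cyp2b19 (-2.02 ± 0.53), one Cyp1b1 probe set (-1.89 ± 0.27), Cyp2j13 (-1.84 ± 0.38) and Cyp3a16 (-1.51 ± 0.38). Cyp2b19 and Cyp2j13 passed in neither genotype alone. Cyp4f16 on 1430173_x_at had a larger negative difference that did not pass (-2.37 ± 0.73, adjusted p = 0.0564). Cyp2c70 fell in the average by 1.16 ± 0.15 (adjusted p = 0.00572). The count of falls was 5 without HFD wildtype replicate 1, 7 without HFD wildtype replicate 2, 6 without either HFD Alb::GC array, 6 without LFD Alb::GC replicate 2, and 8 and 9 without LFD wildtype replicates 1 and 2.

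**Figure D3:**
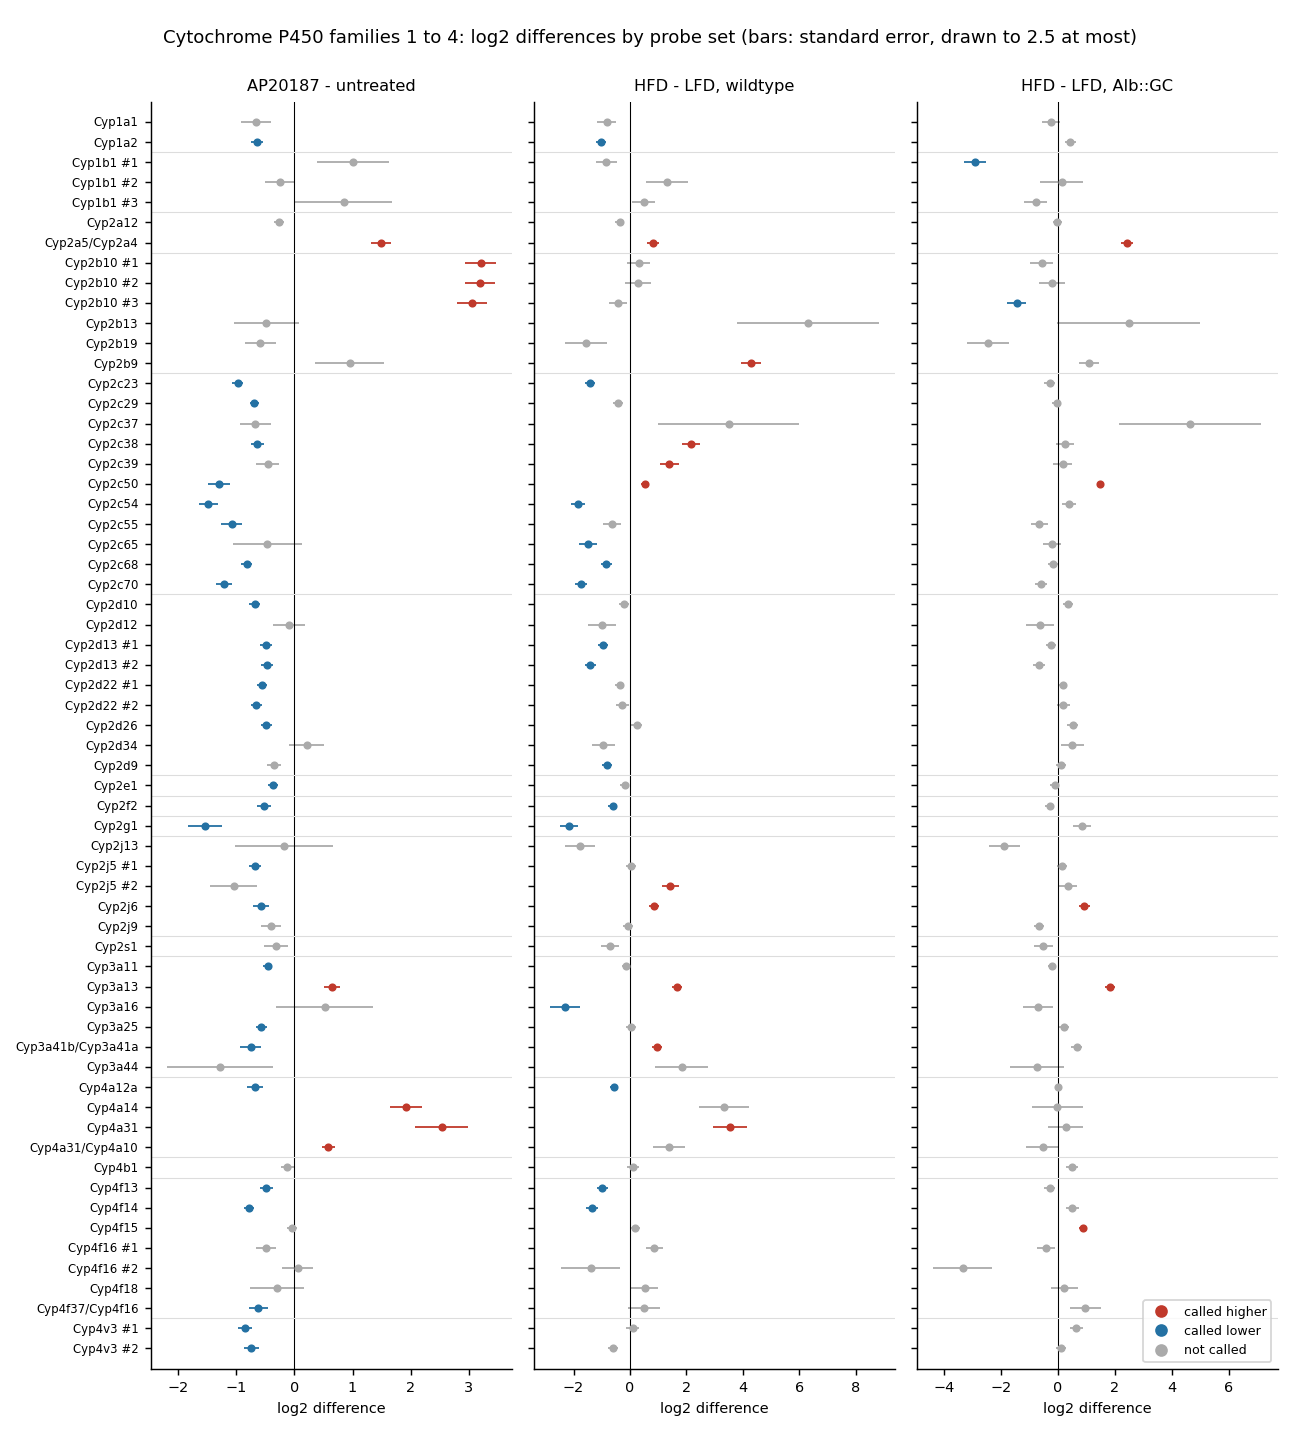
Log2 difference with its standard error (bars drawn to 2.5 at most) for all 62 P450 probe sets, grouped by subfamily, in AP20187-treated against untreated livers and in HFD against LFD livers of wildtype and Alb::GC mice; red and blue points passed limma's adjusted threshold of 0.05 and grey points did not, and #1, #2 and #3 number the probe sets of a gene. With AP20187 the Cyp2c and Cyp2d rows lie left of 0 apart from Cyp2d34 and the Cyp2b10 rows stand near 3; on HFD in wildtype livers Cyp2b9 stands at 4.28.

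The RNA end controls separated the diets. The actin 3′ minus 5′ log2 difference was -0.44 to -0.33 in HFD Alb::GC and -0.71 to -0.62 in HFD wildtype livers, against -0.16 to 0.18 in LFD Alb::GC and -0.03 to 0.21 in LFD wildtype livers, and the Gapdh one was also below all LFD arrays on HFD. Summed hepatocyte markers overlapped or nearly met between the diets (17.45 to 17.65 in HFD wildtype, 17.64 to 19.62 in LFD wildtype), while summed endothelial markers did not overlap (7.31 to 7.69 in HFD Alb::GC and 7.07 to 7.50 in HFD wildtype, against 5.99 to 6.36 in LFD Alb::GC and 4.96 to 5.26 in LFD wildtype). The part of either in the diet results was not tested.

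Between the genotypes no P450 probe set passed the adjusted threshold. Alb::GC against wildtype on LFD gave 0 calls over all probe sets (0%), on HFD 30 (0.133%), averaged over diets 0 (0%), and the diet by genotype interaction 0 (0%). At an unadjusted p under 0.05 the P450 counts were 11 of 62 on LFD, where 10.3% of all probe sets were that low, 24 on HFD against 11.2%, 14 averaged against 11.5%, and 26 for the interaction against 11.1%. As shares of the 62 these are 17.7%, 38.7%, 22.6% and 41.9%.

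Between the genotypes on HFD, the smallest p-values were those of Cyp4f14, Cyp2c54, Cyp2b9, 1 Cyp2b10 probe set and Cyp2g1. Cyp4f14 read 1.56 and 1.63 in HFD Alb::GC livers, against 0.43 and 0.48 in HFD wildtype livers, a difference of 1.71 ± 0.22 (adjusted p = 0.0687). Cyp2c54 read 1.0 and 1.08 in HFD Alb::GC livers, against 0.27 and 0.31 in HFD wildtype livers (1.68 ± 0.24, adjusted p = 0.0751). Cyp2b9 read 3.02 and 1.57 in HFD Alb::GC livers, against 10.97 and 11.65 in HFD wildtype livers (-2.35 ± 0.35, adjusted p = 0.0832). In each of the 3 the 4 arrays separated by genotype, and none passed. Cyp2b13 read 8.05 and 1.25 in HFD Alb::GC livers, against 117.2 and 131.0 in HFD wildtype livers, a difference of -5.26 (adjusted p = 0.874, 0.0879 without the variance trend and 0.114 with robust moderation). Cyp2b10 on 1451787_at read 0.31 and 0.19 in HFD Alb::GC livers, against 1.02 and 1.36 in HFD wildtype livers (-2.06 ± 0.32, adjusted p = 0.0867). Cyp2g1 (1.83 ± 0.32) and Cyp1a2 (1.03 ± 0.18) were on the other side. Cyp4a14 read 0.28 and 0.20 in HFD Alb::GC livers, against 1.62 and 1.57 in HFD wildtype livers, without overlap. Its difference of -2.52 ± 0.89 did not pass (adjusted p = 0.374), and the standard error is shared by all 4 diet groups, the scattered LFD arrays included.

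On LFD the smallest p-values were for Cyp2a5/Cyp2a4, at 0.37 and 0.35 in LFD Alb::GC livers, against 0.99 and 0.66 in LFD wildtype livers (-1.07 ± 0.21, adjusted p = 0.208), and for Cyp4a31, at 1.35 and 0.61 against 0.05 and 0.08 (3.08 ± 0.61, adjusted p = 0.217). On HFD Cyp4a31 read 0.63 and 1.92 in Alb::GC livers, against 1.32 and 1.25 in wildtype livers. For the interaction, taken as the HFD minus LFD difference in Alb::GC minus that in wildtype, Cyp2g1 (3.02 ± 0.45) and Cyp2c54 (2.25 ± 0.35) both had an adjusted p of 0.139, and Cyp2b9 (-3.20 ± 0.50) had 0.141. A P450 that passed in one genotype and not in the other is therefore not shown to differ between them.

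Some members moved the same way in the 2 experiments and others in opposite ways. Of the 8 probe sets that rose with AP20187, 3 also rose on HFD averaged over genotypes: Cyp2a5/Cyp2a4, Cyp3a13 and Cyp4a31, which are 3 of the 10 that rose on HFD. Of these 3, Cyp4a31 passed on HFD in wildtype and not in Alb::GC livers. Of the 29 that fell with AP20187, 8 fell on HFD, which are 8 of its 14: Cyp2c23, Cyp2c54, Cyp2c68, Cyp2c70, both Cyp2d13 probe sets, Cyp2f2 and Cyp4f13. All 8 passed on HFD in wildtype livers and none in Alb::GC livers. There Cyp2c54 was at 0.39 ± 0.24, with both HFD arrays above the LFD arrays. Another 4 fell with AP20187 and rose on HFD, namely Cyp2c38, Cyp2c50, Cyp2j6 and Cyp3a41b/Cyp3a41a. Of these, Cyp2c50 and Cyp2j6 passed on HFD in both genotypes, and Cyp2c38 and Cyp3a41b/Cyp3a41a in wildtype livers only. One Cyp2b10 probe set (1451787_at) rose with AP20187 and fell on HFD, where its HFD and LFD arrays overlapped. The other 2 Cyp2b10 probe sets did not pass on HFD (-0.13 ± 0.29 and 0.04 ± 0.33). Over all probe sets tested, 24.5% of those that rose with AP20187 rose on HFD and 7.76% fell on HFD, while 19.5% of those that fell with AP20187 fell on HFD and 12.4% rose on HFD. Of all that rose on HFD, 24.8% rose with AP20187, and of all that fell on HFD, 28.4% fell with AP20187. The P450 overlaps were not tested against these shares. A further 17 of the 62 probe sets passed neither with AP20187 nor on HFD averaged over genotypes, as did 11145 of all 22626. Among the 17 are Cyp1a1, Cyp2a12, Cyp2b13, Cyp2c37, Cyp2c39, Cyp2d9, Cyp2d12, Cyp2d34, Cyp2s1, Cyp4b1 and Cyp4f18. Of these, Cyp2c39 and Cyp2d9 passed on HFD in wildtype livers. The experiments share no array.

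**Figure D4:**
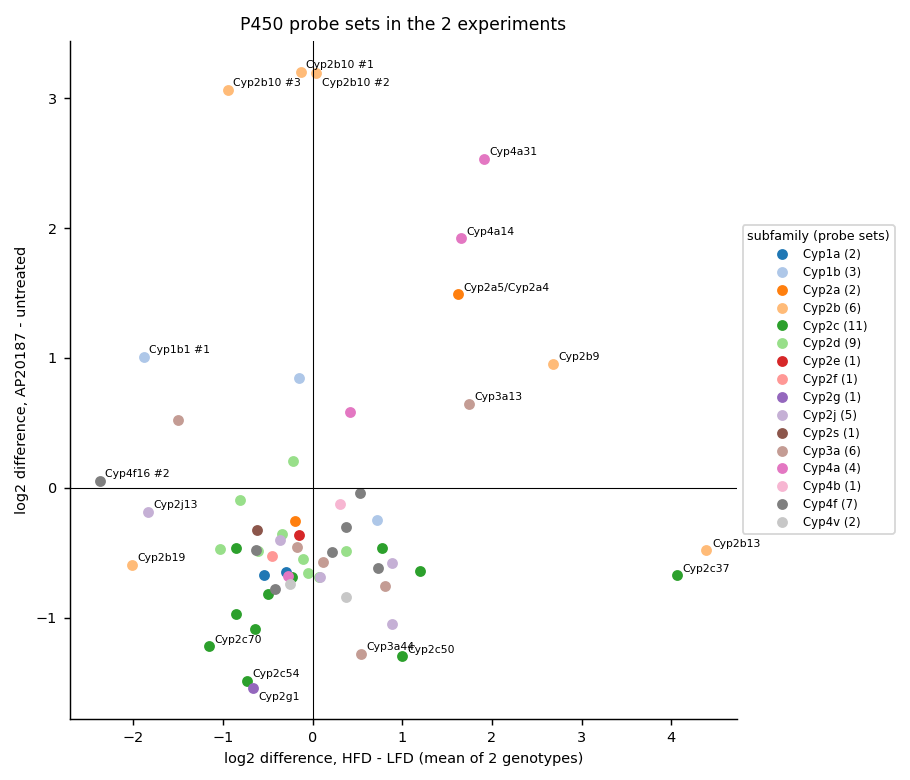
Log2 difference of each of the 62 P450 probe sets with AP20187 (y axis, treated minus untreated) and on HFD (x axis, HFD minus LFD averaged over wildtype and Alb::GC), coloured by subfamily with the number of probe sets in brackets. Cyp2b10 stands at 3.06 to 3.21 on the y axis and near or below 0 on the x axis, Cyp2b13 and Cyp2c37 stand at 4.39 and 4.07 on the x axis and slightly below 0 on the y axis, and Cyp2a5/Cyp2a4, Cyp3a13 and Cyp4a31 are positive on both.

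The partner genes were counted on HFD in the same way. Over all probe sets 7.97% rose and 6.63% fell in wildtype livers, and 4.64% rose and 2.13% fell in Alb::GC livers. The electron partners gave 2 rises and 1 fall among 9 probe sets in wildtype and 1 rise in Alb::GC livers, and Cyb5b, which fell with AP20187, rose on HFD on 1417767_at by 0.57 ± 0.11 in Alb::GC and 1.28 ± 0.11 in wildtype livers. Alas1 rose on both probe sets in wildtype livers, by 2.23 ± 0.31 and 2.65 ± 0.42, and passed on neither in Alb::GC livers (0.30 ± 0.31 and 1.82 ± 0.42). Of 20 receptor and factor probe sets, 7 rose in wildtype and 4 in Alb::GC livers. The glucocorticoid receptor gene Nr3c1 rose on 1421866_at by 1.29 ± 0.22 in Alb::GC and 1.65 ± 0.22 in wildtype livers, and Nr1i2 and Nr1i3 did not pass in either. Dbp, Tef and Hlf rose on 5 of 7 probe sets in each genotype, with Dbp at 4.72 ± 0.27 and 5.57 ± 0.36 in Alb::GC and 2.37 ± 0.27 and 2.51 ± 0.36 in wildtype livers. Of 11 PPARα target probe sets, 5 rose in wildtype and 1 in Alb::GC livers, and the fatty acid transporter Cd36 rose in wildtype livers by 2.70 to 4.42 on its 3 probe sets.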

How the data were processed

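Total liver RNA was hybridised to 16 Affymetrix arrays as biotin-labelled cRNA, per the labels' protocols. The authors deposited 1 linear ratio per probe set and array, given to 2 decimals with a smallest value of 0.01; the sources used here name neither the software and summary method nor the denominator. Depth has no meaning for these arrays, and their number limits the precision. Gene symbols came from the platform annotation, which can be old.

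After 0.05 was added and log2 taken, limma 3.58.1 in R 4.3.3 was fitted to each 8-array experiment as deposited, with variances moderated along a trend with the mean and Benjamini-Hochberg adjustment over 22626 probe sets (64 controls left out, no filter on low values). The fold scale understates changes that reach the smallest values. The AP20187 fit had 6 residual degrees of freedom, and the diet fit, with 1 spread for its 4 groups, had 4. All 62 P450 probe sets would also pass a mean ratio of 0.2. By their suffixes, 49 of them were designed for 1 transcript, 5 for several transcripts of a gene, and 8 share or cross-hybridise with other sequences. The fit was tested on simulated data, where the diet experiment recovered smaller changes less often than the AP20187 experiment and gave false calls above the nominal share. Alternatives were quantile normalization, median centring, pseudocounts of 0.01 and 0.2, the 0.2 filter, no trend, robust moderation, each array left out, and another probe set per gene.

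Members, partner lists and markers were chosen with earlier results of these data known. A rule chose members to describe: in each comparison, the 12 largest rises and 12 largest falls that passed without overlap, plus 19 fixed genes. Of the fixed genes, 17 had a probe set of their own. Values per array are printed for only part of the chosen members, and Cyp2b13 and Cyp2c37 were added outside the rule. Promoters were matched by symbol to RefSeq GRCm38.p6 for 44 of 55 symbols. Alignments used Biopython 1.88, and plots matplotlib 3.10.9 in Python 3.11.15.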

Additional observations from a re-analysis of the deposited data

Results flagged for a closer look

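Within the groups of 4, 124 sets of arrays were examined for a highest or lowest array that stood apart from the others by Dixon's criterion at the 95% level, and 7 had one, while chance gives about 1 in 20. AP20187 replicate 3 read 0.56 for Cyp2b9, below the other AP20187 arrays, and AP20187 replicate 4 read 1.33 for Cyp2s1 and 0.87 for Cyp4f16 on 1430173_x_at. Untreated replicate 3 read 1.13 for Cyp2e1 and 1.76 for Cyp2c70, each the lowest untreated value. Untreated replicate 4 read 0.36 for Cyp2a5/Cyp2a4, where the other untreated arrays all read 0.32, and 1.17 for Cyp4f15.

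For 9 probe sets, both HFD arrays lay on opposite sides of the LFD arrays in the 2 genotypes. The interaction, the HFD minus LFD log2 difference in Alb::GC minus that in wildtype, was 3.02 for Cyp2g1, 2.25 for Cyp2c54, 1.86 for Cyp4f14, 1.46 for Cyp1a2, 0.71 for Cyp4v3 on 1417071_s_at, 0.56 for Cyp2d10 and 0.53 for Cyp2d22 on 1419039_at. It was -1.92 for Cyp4a31/Cyp4a10 and -1.28 for Cyp4f16 on 1417277_at. By limma with Benjamini-Hochberg adjustment none of the 9 interactions passed, with adjusted p of 0.139 or more.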

How the results depend on the processing

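With AP20187 the number of P450 probe sets that rose was 8 or 9 and the number that fell 23 to 34 under all alternatives, and no P450 probe set passed between the genotypes or for the interaction under any of them. The diet counts depended on single arrays. With 1 array left out, HFD in wildtype livers had 0 to 8 rises (10 with all arrays) and 0 to 12 falls (15), HFD in Alb::GC livers 0 to 5 rises (5) and 0 to 2 falls (2), and HFD averaged over genotypes 7 to 11 rises (10) and 5 to 11 falls (14). Leaving out an array also leaves fewer degrees of freedom, and a lone array is then assumed to vary like the other groups. Quantile normalization gave 5 rises and 11 falls on HFD in wildtype livers. On HFD in Alb::GC livers it gave 1 fall, as did a pseudocount of 0.2 and robust moderation. By gene, 1 rather than 0 fell on HFD in Alb::GC livers with the probe set of smallest spread; the causes were not tested. Calls of single probe sets kept their side of the threshold in 911 of 930 cases with AP20187, 789 on HFD in wildtype, 891 on HFD in Alb::GC and 836 on HFD averaged. No probe set that passed turned its direction. On HFD, Cyp2b13 in wildtype livers and Cyp2c37 in both genotypes passed without the variance trend and with robust moderation, and under none of the other alternatives run. No paired analysis was possible because array numbers in the labels run on across groups and pair no samples.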
